A study of Mus musculus with 2 samples.

Results

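Ndn, Magel2, Zfp127 (Mkrn3), Frat3 (Peg12) and PX00010K13 are 5 entries of the catalog of known imprinted genes deposited with the series, all marked there as expressed from the paternal allele. They were taken as the catalog entries on chromosome 7 of mm9 that start between 68.8 and 69.7 Mb, which left 5 of the 128 entries. The data were 2 RNA-Seq libraries of polyA+ RNA from whole mouse brain at embryonic stage E17.5. The BxC library came from an F1 embryo of a C57BL/6J mother and a CastEi/J father, and the CxB library from the reciprocal cross. Both embryos were untreated and carried 1 genome of each strain. Each cross is thus 1 brain, so the spread between brains was not measured, no p-value is given, and all intervals are 95% intervals that cover counting error only.

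Genomic imprinting is the expression of a gene from the copy inherited from 1 parent only. The 4 protein-coding genes lie in the mouse counterpart of the human Prader-Willi and Angelman syndrome interval, where a distant imprinting centre at the Snrpn promoter governs the paternal expression of a whole chromosomal block. Necdin (Ndn) is a MAGE family protein of postmitotic neurons that restrains growth and cell death. Magel2 is a larger MAGE protein that works with an E3 ubiquitin ligase on endosomal sorting and is best known from the hypothalamus. Mkrn3 encodes a makorin RING finger protein that holds back the onset of puberty. Peg12, also called Frat3, is a relative of Frat1 and Frat2, which bind GSK3 and thereby favour beta-catenin signalling. As the paternal copy was of CastEi/J origin in BxC and of C57BL/6J origin in CxB, the strain of the expressed copy, the cross and the individual brain cannot be told apart in these data. By the study the CxB embryo was male, and the sex of the BxC embryo is not given in the sources used here.

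The annotated gene models were compact. Ndn (ENSMUSG00000033585.4) covered chr7:69493163-69494814 on the plus strand, with a coding sequence of 975 bases. Magel2 (ENSMUSG00000056972.5) covered chr7:69521865-69526526 on the plus strand, with 3852 coding bases. Mkrn3 (ENSMUSG00000070527.2) lay on the minus strand at chr7:69562479-69565039, with 1632 coding bases, and Peg12 (ENSMUSG00000070526.2) on the minus strand at chr7:69606757-69609396, with 849 coding bases. Each model was made of 1 exon. The catalog entries differed from these models. The Zfp127 entry spanned 714 kB, from chr7:68850576 to chr7:69565025, and enclosed PX00010K13, Ndn and Magel2. The Magel2 entry held 1949 exon bases in 5 blocks, against 4662 bases of the annotated gene. PX00010K13 ran antisense to Ndn over chr7:69491456-69494164. It overlapped Ndn from its start but not the 3′ part from there to chr7:69494814.

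The upstream flanks of the 4 genes are shown because few reads lay in them and more lay within the genes. Sequences are the 250 bases before the start, 5′ to 3′ on the strand of the gene, from the RefSeq promoter table (GRCm38.p6), and each matched mm9 exactly and ended directly before the annotated start. Capitals mark matches on either strand to the GC box (letters GGGCGG), the CCAAT box (its own letters), the core of ETS factor sites (letters CCGGAAG), the core of NRF1 sites (letters GCATGCG) and the TATA box (letters TATAAA).
Ndn, chr7:69492913-69493162, plus strand: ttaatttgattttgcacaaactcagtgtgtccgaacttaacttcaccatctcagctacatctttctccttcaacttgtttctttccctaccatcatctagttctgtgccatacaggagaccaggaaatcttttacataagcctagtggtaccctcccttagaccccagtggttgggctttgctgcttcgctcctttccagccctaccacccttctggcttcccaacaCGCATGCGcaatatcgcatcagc
Magel2, chr7:69521615-69521864, plus strand: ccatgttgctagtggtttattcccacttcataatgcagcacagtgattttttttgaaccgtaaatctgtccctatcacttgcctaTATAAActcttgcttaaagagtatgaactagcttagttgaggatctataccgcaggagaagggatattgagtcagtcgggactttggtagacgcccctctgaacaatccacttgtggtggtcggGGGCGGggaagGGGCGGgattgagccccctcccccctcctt
Mkrn3, chr7:69565040-69565289, minus strand: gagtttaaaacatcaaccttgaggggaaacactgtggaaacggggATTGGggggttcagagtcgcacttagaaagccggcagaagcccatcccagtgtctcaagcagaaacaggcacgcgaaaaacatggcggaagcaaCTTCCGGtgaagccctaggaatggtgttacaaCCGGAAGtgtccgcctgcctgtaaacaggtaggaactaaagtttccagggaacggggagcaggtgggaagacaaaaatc
Peg12, chr7:69609397-69609646, minus strand: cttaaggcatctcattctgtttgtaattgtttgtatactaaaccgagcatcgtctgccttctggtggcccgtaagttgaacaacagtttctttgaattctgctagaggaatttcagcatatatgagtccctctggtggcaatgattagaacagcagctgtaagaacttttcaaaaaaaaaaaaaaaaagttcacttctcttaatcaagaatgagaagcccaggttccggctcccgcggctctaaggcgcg

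The 4 flanks shared no motif of this set. Ndn held the NRF1 core on both strands in overlapping letters, 23 to 16 bases before the start, and 3.07% of the 27025 promoters in the table held this core. Magel2 held 2 GC boxes, 41 to 36 and 30 to 25 bases before the start, and a TATAAA 165 to 160 bases before it. GC boxes were found in 32.9% and TATAAA in 13.0% of all promoters. Mkrn3 held the ETS core once on each strand, 111 to 105 and 79 to 73 bases before the start, a motif found in 7.05% of promoters, and a CCAAT box, found in 34.5%. Peg12 held no match to these letters in this window. The number of CpG dinucleotides was 5 in Ndn, 7 in Magel2, 10 in Mkrn3 and 8 in Peg12, against a median of 6 over all promoters.

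Few reads lay before the annotated starts. In the 250 bases before Ndn the mean depth was 0.280 reads in BxC and 0.972 in CxB, and in the first 50 bases of the gene it was 65.2 and 54.9. For Magel2 the depth went from 0.708 to 2.14 in BxC and from 0.308 to 1.60 in CxB. For Mkrn3 it went from 0.384 to 6.50 in BxC and from 0.088 to 1.28 in CxB, and for Peg12 from 0.432 to 2.68 and from 0.080 to 1.32. The mean of the first 50 bases was above that of the flank at all 4 starts in both libraries, and in Ndn the depth went on climbing over the first 90 bases.

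Total depth, as the sum of the deposited counts, was 128944754 reads in BxC and 109719746 in CxB. Both sums exceed the average yield of reads per library that the study states, and the reason was not tested. Levels are given as RPM, reads scaled to 1000000 per library, and a count of 0 allows up to 3 reads, or 0.0233 and 0.0273 RPM. Although the study describes a strand-specific protocol, reads lay on both strands. Among the 13884 protein-coding genes that reached 100 reads in both, the median share on the annotated strand was 43.9% in BxC and 43.2% in CxB. The members followed this. The sense share of Ndn was 44.6% (interval 44.1 to 45.1) in BxC and 43.4% (42.8 to 44.0) in CxB, that of Magel2 43.1% and 41.0%, that of Mkrn3 47.3% and 46.1%, and that of Peg12 45.4% and 45.6%. Antisense transcription of the members was therefore not readable from strand. Neuronal genes were abundant, with Tubb3 at 974 RPM per kilobase in BxC and 840 in CxB and Stmn2 at 343 and 355. Of 6 hypothalamic genes, Otp was the highest at 12.1 and 12.3 and Oxt had the fewest reads, at 9 and 16.

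All 5 entries were covered by at least 10 reads in each library when every read was given to the innermost entry. Ndn received 43731 reads in BxC and 26105 in CxB, the Zfp127 entry after removal of the inner entries 31402 and 28962, Magel2 2331 and 1644, Frat3 665 and 550, and PX00010K13 148 and 120. These counts depend on where the entries end. Over its whole span PX00010K13 overlapped 24614 reads in BxC and 14233 in CxB, of which 0.601% and 0.843% remained after the reads of Ndn were removed. Of the reads that remained, those placed entirely before the annotated Ndn start, within the 1.71 kB of PX00010K13 that no part of Ndn covers, numbered 0 in BxC and 2 in CxB. No separate level could thus be given for PX00010K13, and with the annotated Ndn in place of the catalog entry 4 of the 5 entries were covered.

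Levels of the annotated genes, in RPM per kilobase of exon, spread over a wide range and kept 1 order in both libraries. Ndn was at 206 (interval 204 to 208) in BxC and 145 (143 to 146) in CxB, from 43879 and 26223 reads. Magel2 was at 8.75 (8.51 to 8.99) and 7.47 (7.23 to 7.71), from 5258 and 3821 reads. Mkrn3 was at 4.66 (4.43 to 4.90) and 5.63 (5.36 to 5.91), from 1538 and 1582 reads. Peg12, the lowest, was at 1.95 (1.81 to 2.11) and 1.90 (1.74 to 2.06), from 665 and 550 reads. No neighbours in this order had overlapping intervals within a library. Ndn exceeded Magel2 by 23.6 times in BxC and 19.4 times in CxB, and Peg12 by 105 and 76.2 times. By distinct alignments per base, with each deposited alignment counted once, these ratios were 9.68 and 7.997 for Magel2 and 30.2 and 22.8 for Peg12. Magel2 exceeded Mkrn3 by 1.88 times in BxC and by 1.33 times in CxB, or by 1.84 and 1.62 times by distinct alignments.

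**Figure D1:**
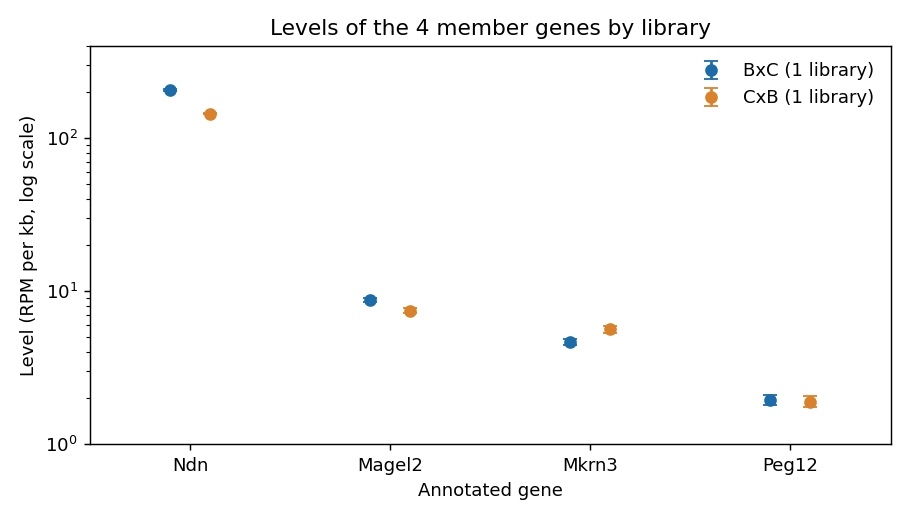
Levels of Ndn, Magel2, Mkrn3 and Peg12 in RPM per kilobase of exon on a log axis, with 1 point per library and bars for the 95% Poisson interval of the count. Ndn lies near 206 in BxC and 145 in CxB, and the other genes lie between 1.90 and 8.75.

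Among 22380 annotated protein-coding genes, ordered by the mean of both libraries, Ndn ranked 91, Magel2 5282, Mkrn3 7171 and Peg12 10644. Ndn thus lay above 99.6% of protein-coding genes and Peg12 above 52.4%. The genes ranked directly above Ndn were Ppp1ca, a catalytic subunit of protein phosphatase 1, at 188 RPM per kilobase in BxC and 174 in CxB, and Snrnp70, a spliceosome protein, at 191 and 170. Directly below came Atp6v1f, a subunit of the vacuolar proton pump, at 183 and 165, and Pea15a, a signalling adaptor rich in brain, at 172 and 175. Ndn was above all 4 of these neighbours in BxC and below all 4 in CxB.

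Between the libraries the ratios of the 4 genes differed. The log2 ratio of CxB over BxC RPM was -0.51 for Ndn (interval -0.53 to -0.49), a level 1.42-fold higher in BxC. It was -0.23 for Magel2 (-0.29 to -0.17), 1.17-fold higher in BxC. For Mkrn3 it was 0.27 (0.17 to 0.38), 1.21-fold higher in CxB by reads but 0.06 by distinct alignments, and for Peg12 it was -0.04 (-0.21 to 0.12), an interval that holds 0. The remaining reads of the Zfp127 entry had a ratio of 0.12 (0.09 to 0.14). None of the 5 entries or 4 genes passed 1.5-fold in either direction. Of the 15427 annotated genes with at least 100 reads in each library, 0.473% were more than 1.5-fold higher in CxB and 0.622% more than 1.5-fold lower. The median ratio over these genes was -0.0011, with 5% below -0.29 and 5% above 0.28. In this distribution 167 genes, or 1.08%, lay below Ndn, 8.51% below Magel2, 38.2% below Peg12 and 94.5% below Mkrn3. Ndn was thus outside the central range of the genes, Mkrn3 and Magel2 were within it, and the counting intervals of Ndn, Magel2 and Mkrn3 each left out 0. These intervals take each read as independent, which was not tested. By distinct alignments the ratios were -0.40 for Ndn, -0.12 for Magel2 and 0.06 for Mkrn3, each outside its interval by reads. For allelic counts the study found more noise than independent sampling of reads allows. How far 2 brains of 1 cross would differ was not measured. In whole brain, fewer cells that express a gene and less RNA per cell cannot be told apart.

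**Figure D2:**
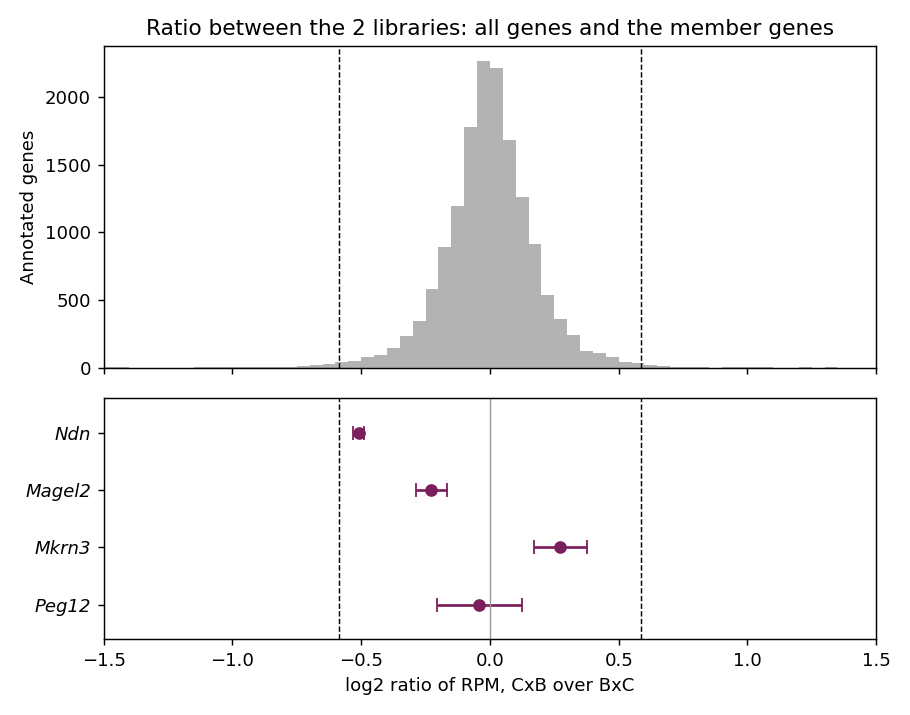
The upper panel is a histogram of the log2 ratio of RPM, CxB over BxC, for 15427 annotated genes, of which 6 lie outside the axis, and the lower panel gives the 4 member genes with 95% counting intervals. Dashed lines mark 1.5-fold, and by reads Ndn lies at -0.51 and Mkrn3 at 0.27, while by distinct alignments, which are not drawn, Mkrn3 was at 0.06.

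The level of Ndn was lower in CxB in each of 8 windows of 200 bases, by depth per 1000000 reads, with ratios from -0.61 to -0.41. Over the first 40 bases, where few reads lie, the depth was higher in CxB. Magel2 was lower in CxB in 18 of 23 windows, with a range from -0.52 to 0.51. Mkrn3 was higher in CxB in 9 of 12 windows, with a range from -0.90 to 0.70, and Peg12 was higher in 6 and lower in 7 of 13, with a range from -1.69 to 0.67. The window ratios thus spread less in Ndn than in the genes with fewer reads.

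Positions within the transcripts were used unequally. The coding sequence made up 59.0% of Ndn and took 53.4% of its aligned bases in BxC and 51.7% in CxB by reads, but 68.2% and 69.7% by distinct alignments. In Magel2 it made up 82.6% of the length and took 88.3% and 89.1%, and in Mkrn3 63.7% of the length and 82.3% and 82.7%. Peg12 was the reverse of Mkrn3, with a coding sequence of 32.2% of the length and 22.1% and 28.4% of the bases. Most of its aligned bases thus lay outside the coding sequence. Mean depth over the gene was 956 reads in BxC and 571 in CxB for Ndn, 40.6 and 29.5 for Magel2, 21.6 and 22.2 for Mkrn3 and 9.06 and 7.49 for Peg12. At least 10 reads covered 98.9% and 99.5% of Ndn, 84.6% and 77.0% of Magel2, 50.6% and 49.5% of Mkrn3, and 30.3% and 22.5% of Peg12.

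**Figure D3:**
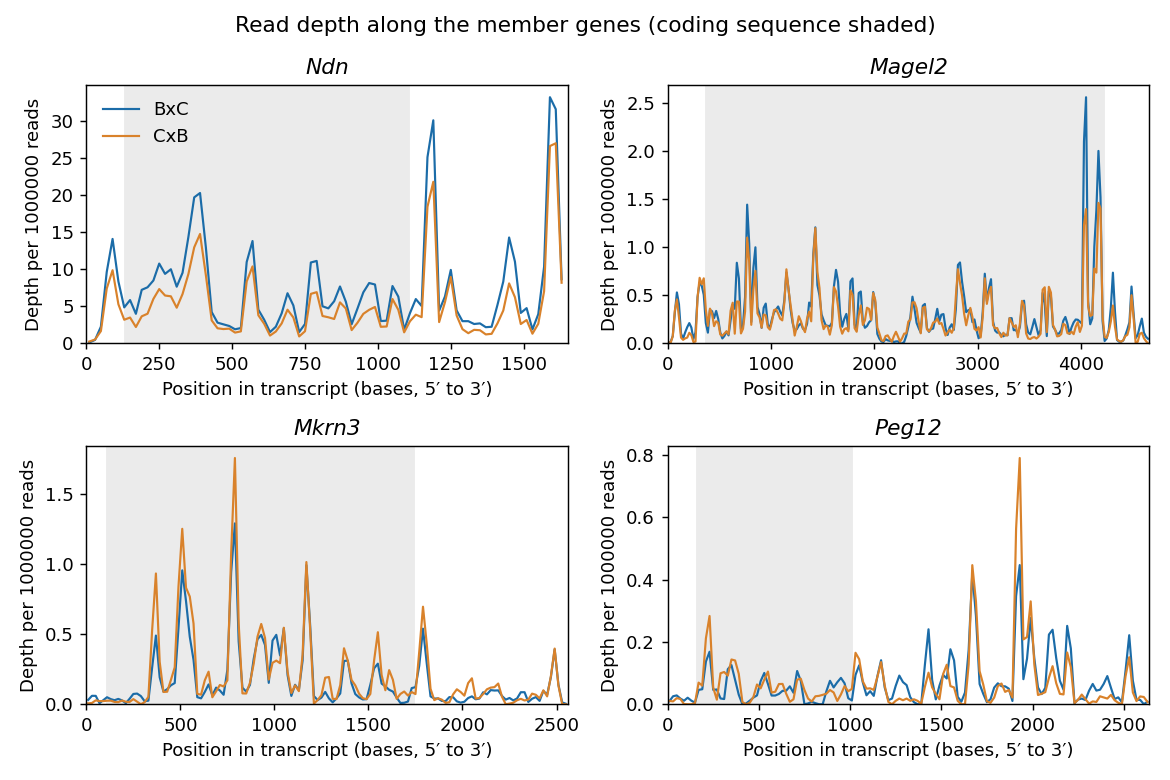
Read depth per 1000000 reads along Ndn, Magel2, Mkrn3 and Peg12 in bins of 20 bases, 5′ to 3′, with the coding sequence shaded and 1 line per library. The peaks fall at like positions in both libraries, and the BxC line lies above the CxB line in each 200-base window of Ndn.

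The peaks recurred between libraries. Counting read starts per base and strand, the 10 most used starts held 16.5% of Ndn reads in BxC and 18.2% in CxB, and 20.8% of Mkrn3 reads in both. The index of dispersion of starts is 1 for independent and even placement and, where placement is uneven, rises with depth. It was 205 and 143 for Ndn, 14.1 and 8.68 for Magel2, 12.3 and 13.1 for Mkrn3 and 3.73 and 4.11 for Peg12. Spearman's rho of the starts between libraries was 0.66 over 3304 positions of Ndn and from 0.33 to 0.35 in the other genes, a description over positions that share the base composition of the gene. Distinct alignments are not distinct starts, as several can share 1 start. Reads piled up on shared alignments, with 7.10 and 6.57 reads per distinct alignment in Ndn against 2.03 and 1.96 in Peg12. The index, rho and this number all depend on depth, so they do not rank the genes by unevenness. Whether these were copies of 1 fragment was not tested. When distinct alignments were counted instead of reads, the ratio was -0.40 for Ndn, -0.12 for Magel2 and 0.06 for Mkrn3, all nearer to 0 than with reads. Of the possible starts in Ndn, 81.4% were in use in BxC and 67.5% in CxB, against 6.02% and 5.06% in Peg12. Distinct alignments in Ndn numbered 6180 and 3993 over its 3304 start positions, so the number of starts is not a ceiling for them. Whether crowded starts limit this count in Ndn was not tested.

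Few 36-base words of these genes had an exact copy elsewhere in mm9. Near copies with mismatches and CastEi/J words were not searched, so a limit from mapping was not tested in full. All 36-base words of Ndn and Mkrn3 occurred once in mm9, as did 98.3% of those of Magel2 and 99.0% of those of Peg12. Of the relatives, 3 pairs were compared, with 87.2% identity over 687 aligned coding bases between Peg12 and Frat2, 77.0% between Mkrn3 and Mkrn1 and 75.6% between Mkrn3 and Mkrn2, and 0 shared words of 36 bases in each pair.

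The Zfp127 entry is named for Mkrn3, but Mkrn3 supplied few of its reads. Of 77612 reads in BxC over the whole entry, 56.5% (interval 56.2 to 56.9) fell in Ndn, 6.77% in Magel2, 1.98% in Mkrn3 and 0.674% in the exons of the lincRNA A330076H08Rik. Of 56831 reads in CxB, the shares were 46.1% (45.7 to 46.6), 6.72%, 2.78% and 0.838%. The pseudogene Gm9801 had 16 and 49 reads. The remaining 33.9% in BxC and 43.3% in CxB lay outside all annotated exons, over 97.9% of the span, at 0.292 and 0.321 RPM per kilobase. By distinct alignments this share was 54.0% and 62.1%. With the annotated genes extended by 5 kB it was 14.05% and 18.1%, while A330076H08Rik took 13.1% and 13.96% and the small RNA genes 7.20% and 11.6%.

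Reads of the entry outside Ndn, Magel2 and Mkrn3 were clustered. The counts by bin include the exon reads of A330076H08Rik, which spans chr7:69075799-69127242. In bins of 10 kB counted from the Mkrn3 start into the entry, the 67 bins without Ndn, Magel2 or Mkrn3 had a median of 0.0783 RPM per kilobase in BxC and 0.108 in CxB, and reached 4.83 and 3.87. Between 80 and 210 kB, on the side of Ndn away from Mkrn3, 13 bins held 151 and 118 reads in all, or 0.00901 and 0.00827 RPM per kilobase, with 97.6% as the median share of unique 36-base words. Between 480 and 510 kB, 3 bins held 13325 and 8831 reads, or 3.44 and 2.68 RPM per kilobase. The bin centred at 485 kB held 4273 and 3730 of these and lay largely within the span of A330076H08Rik. Between the genes there were 177 and 261 reads in the 27.1 kB between Ndn and Magel2, 92 and 70 in the 35.95 kB between Magel2 and Mkrn3, and 39 and 69 in the 100 kB beyond Peg12. The 41.7 kB between Mkrn3 and Peg12 held 345 and 280 reads. The level between Ndn and Magel2 was 0.0507 and 0.0879 RPM per kilobase, and between Mkrn3 and Peg12 it was 0.0641 and 0.0612, both above the level from 80 to 210 kB.

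The ratio between libraries changed along the entry. From 510 to 660 kB, a part chosen after its values were seen, 15 bins held 2528 reads in BxC and 5318 in CxB, which gave a log2 ratio of 1.31 (1.24 to 1.37), or 2.47-fold higher in CxB. In 14 of these 15 bins the level was higher in CxB. Distinct alignments in the same part numbered 1583 and 2861, a log2 ratio of 1.09. From 660 to 710 kB, 5 bins held 3647 and 4412 reads, a log2 ratio of 0.51 (0.44 to 0.57) by reads and 0.11 by distinct alignments. The bin centred at 665 kB held 3379 and 4246 of these, and the level was higher in CxB in 2 of the 5 bins. From 510 to 710 kB the ratio was 0.89 (0.84 to 0.94). From 480 to 510 kB the ratio was -0.36 (-0.40 to -0.32), and from 210 to 480 kB it was 0.06 (0.01 to 0.11).

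**Figure D4:**
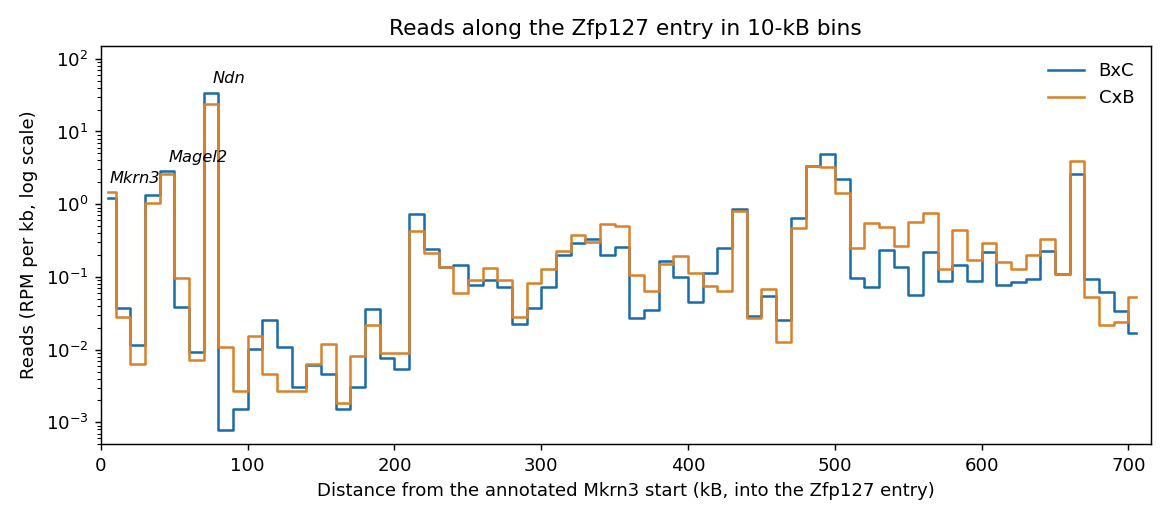
RPM per kilobase in 71 bins of 10 kB by distance from the annotated Mkrn3 start into the Zfp127 entry, on a log axis, with 1 line per library and the bins of Mkrn3, Magel2 and Ndn named. Both lines drop between 80 and 210 kB. From 510 to 660 kB, a part chosen after its values were seen, the CxB line lies above the BxC line in 14 of 15 bins.

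Spliced reads in the entry, with 1 exception, lay on the far side of the stretch from 80 to 210 kB. They used 38 introns, of which 37 had the splice motif of the minus strand, and 19 of these 37 were seen in both libraries, with 206 reads in BxC and 112 in CxB. The exception, an intron with a plus-strand motif, was seen in 1 BxC read. None of the 38 introns was in the annotation used here. The minus-strand introns ran from chr7:68851739 to chr7:69354333, and their edge nearest to Ndn was 139 kB from it. No spliced read thus joined Ndn, Magel2 or Mkrn3 to the reads beyond. Of these introns, 17 lay within 200 kB of Ndn, between chr7:69336088 and chr7:69354333, with 93 and 48 reads. Where reads are aligned to junctions of gene models, as in 1 of the alignments the study describes, introns absent from those models cannot be seen.

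The most used spliced site differed between the libraries in its partner. This site was chosen after its values were seen. An exon of 178 bases at chr7:69061445-69061622, minus strand, was either joined to the next exon through an intron of 2.19 kB or skipped through an intron of 10.9 kB. Counted at the junction to the next exon, 1 read joined the exon in BxC and 56 skipped it, a joining share of 1.75% (Clopper-Pearson interval 0.0444 to 9.39). In CxB, 31 reads joined it and 5 skipped it, a share of 86.1% (70.5 to 95.3). By distinct alignments the counts were 1 and 11 in BxC and 9 and 3 in CxB, or 8.33% and 75.0%. The intervals of these shares did not overlap by reads or by distinct alignments. At a site chosen after its values were seen, this is a description and not a test. The depth of the exon was 5.03 in BxC and 18.4 in CxB, while the 110 bases before the long intron had 34.1 and 17.6 and the 100 bases after it 38.1 and 37.6. On its other side the exon was joined by 2 reads in each library. Reads that joined it there or skipped it through the 10.9 kB intron numbered 58 in BxC and 7 in CxB. These leave out 2 BxC reads from the same donor that skipped it through an intron of 11975 bases. The share from that side was 3.45% (0.420 to 11.9) in BxC and 28.6% (3.67 to 71.0) in CxB, intervals that overlap, so a difference was not detectable there at this depth. The 31 joining reads of CxB on 1 side and 2 on the other do not give 1 share of use for the exon. The reason was not tested.

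The splice sites of this choice are shown as 30 bases of mm9 on the minus strand, 5′ to 3′, with the first or last 2 intron bases in capitals. All 4 follow the GT and AG rule in the reference, which is of C57BL/6J. The CastEi/J bases are not analysed here.
Donor of the exon before, chr7:69070182-69070211: ccacattcagctgagGTattgtaagacaac
Acceptor of the 178-base exon, chr7:69061608-69061637: ttctctttaacatAGatccaagagtcttga
Donor of the 178-base exon, chr7:69061430-69061459: tagaacagtatgttgGTaggaatcatttta
Acceptor of the exon after, chr7:69059243-69059272: tttgcttacaaacAGgaaactaacatgact

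**Figure D5:**
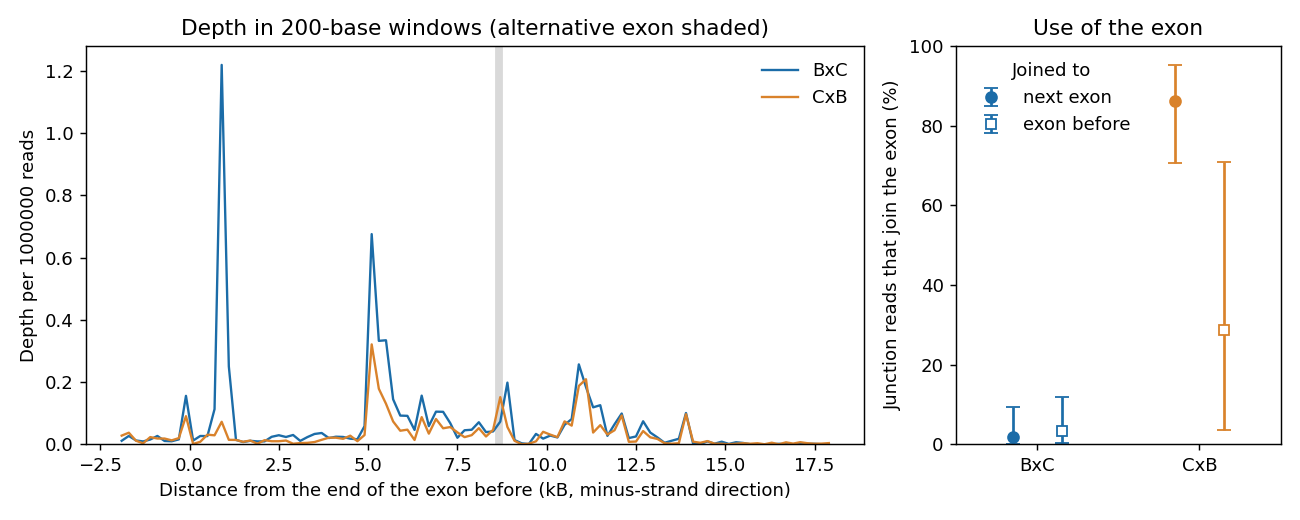
Left, depth per 1000000 reads in windows of 200 bases by distance in kB from the end of the exon before the long intron, with the 178-base exon shaded. Right, the share that joins this exon, of reads that join it or skip it through the long intron, with 95% Clopper-Pearson intervals. At the junction to the next exon (filled circles) it was 1.75% in BxC and 86.1% in CxB, and at the junction to the exon before (open squares) 3.45% and 28.6%, with overlapping intervals.

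The highest peak within that long intron was seen almost wholly in BxC. Over the 400 bases chr7:69069097-69069496, also chosen after its values were seen, BxC had 1116 reads and CxB 53, a log2 ratio of -4.16 (-4.59 to -3.77). The peak was narrow, as 341 of the BxC reads shared 1 alignment and 92.1% lay on the plus strand. By distinct alignments there were 84 and 17, a log2 ratio of -2.07. Without this window the ratio from 480 to 510 kB was -0.24 (-0.28 to -0.20). Of the 36-base words there, 93.8% were unique in mm9.

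The entry also encloses most of the miR-344 cluster, a family of brain microRNAs, with 11 of its 13 hairpin names in the RefSeq table inside and Mir344d-1 and Mir344d-2 beyond its far end. Hairpins of these 11 names from RefSeq matched 11 positions within it, all on the minus strand, from 335 to 694 kB from the Mkrn3 end of the entry. Of the 17 mature sequences in the RefSeq table (GRCm38.p6), those that share a seed with another are shown, with the seed, bases 2 to 8, in capitals. A seed of GUCAGGC was shared by 5 of the 5′ arms.
miR-344-5p: aGUCAGGCuccuggcuagauuccagg
miR-344b-5p: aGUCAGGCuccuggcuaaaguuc
miR-344c-5p: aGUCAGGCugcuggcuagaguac
miR-344d-3-5p: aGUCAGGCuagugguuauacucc
miR-344g-5p: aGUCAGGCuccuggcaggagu
The other shared seeds belonged to pairs, and the miR-344e and miR-344h 5′ arms were identical throughout.
miR-344e-5p: cAGGCUUCuggcuauauucc
miR-344h-5p: cAGGCUUCuggcuauauucc
miR-344-3p: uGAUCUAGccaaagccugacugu
miR-344c-3p: uGAUCUAGucaaagccugacagu
miR-344d-3p: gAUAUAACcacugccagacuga
miR-344e-3p: gAUAUAACcaaagccugacuau

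Selection for polyA+ RNA does not capture mature microRNAs, so reads over the hairpins count longer RNA. They numbered 44 in BxC and 39 in CxB over all 11 positions. Mir344g had 15 and 14 reads, Mir344-2 12 and 9, Mir344 8 and 11 and Mir344c 5 and 4. Hairpins of Mir344e and Mir344b had 0 reads in both libraries although all of their 36-base words were unique, and those of Mir344h had no unique word, so that no read could be placed there uniquely. No difference between the libraries was detectable at this depth.

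The study followed Frat3 by pyrosequencing at a SNP at chr7:69607265, which lies in the Peg12 exon outside its coding sequence. The primers are shown because they place the assay within the gene. Each matched mm9 once on chromosome 7, after removal of a tail from the forward primer, and the sequencing primer ended 1 base from the SNP.
Forward, chr7:69607208-69607231, plus strand: tatccagagaactgcagctgttcc
Reverse, chr7:69607293-69607313, minus strand: ggggaggcttctcataatggg
Sequencing, chr7:69607266-69607284, minus strand: ggacacagtctcacacaac
At the SNP the RNA-Seq depth was 17 reads in BxC (interval 9.90 to 27.2), at 12 distinct alignments, and 6 in CxB (2.20 to 13.1), at 5. These depths were above the median of the gene, which was 6 and 4. The deposited alignments list no bases, so the allele of these reads was not counted. In the study's own pyrosequencing Frat3 was a positive control, with opposite alleles favoured in the reciprocal crosses.

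In the MAGE family 8 of 11 genes had at least 100 reads in each library, with a median log2 ratio of -0.03 against -0.0011 over all genes tested, and 0 passed 1.5-fold, where 0.473% of all genes tested were past it higher in CxB and 0.622% lower. Maged1, a partner in neurotrophin signalling, was the closest to Ndn in level, at 132 RPM per kilobase in BxC and 131 in CxB, and Ndnl2 the lowest of the 8 at 2.26 and 2.15. Mageb16, Mageb18 and Magea4 had 0 reads in both. Ndn had the lowest ratio of this family. Next was Magel2 by reads, while by distinct alignments Magel2 and Magee2 were both at -0.12. Among makorins, Mkrn1 was at 24.5 and 25.1 and Mkrn2 at 17.6 and 16.4, both above Mkrn3. In the list of Frat genes and the GSK3 and beta-catenin pathway all 12 genes had ratios from -0.14 to 0.09 with a median of -0.02. Ctnnb1, which encodes beta-catenin, was at 91.3 and 85.8, Frat1 at 18.6 and 19.8, Frat2 at 4.60 in both, and Peg12 was the lowest of the 12.

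Of 16 symbols listed for proteins that bind necdin or Magel2 or work with them, 14 matched the annotation, the others being Washc1 and Wash1, which are names of 1 gene, and 13 had at least 100 reads in each library, with a median ratio of -0.0033. Dlx1, a transcription factor of inhibitory neurons, was the highest at 30.4 and 29.9. Vps35, of the retromer, had the highest ratio by reads at 0.36, but 0.09 by distinct alignments. The 6 puberty genes were at low levels, and 2 of them had at least 100 reads in each library. Kiss1r, the kisspeptin receptor, was the highest of the 6 at 1.38 and 1.65, Kiss1 had 10 and 2 reads and Gnrhr 4 and 1. Tacr3, the neurokinin B receptor, had 304 and 360 reads, a ratio of 0.48 by reads and 0.24 by distinct alignments. Along the wider imprinted interval, 11 of 13 listed neighbours had enough reads, with a median ratio of 0.04. Snrpn was at 156 and 150 with a ratio of -0.06, close to Ndn in level, and Ube3a, the Angelman syndrome gene, was at 11.2 and 10.3 with a ratio of -0.12. Atp10a had the highest ratio of these neighbours at 0.26 and Oca2, a pigment gene, the lowest level at 0.118 and 0.152. In all, 0 of the 49 listed genes with enough reads passed 1.5-fold, a count that the shares of 0.473% and 0.622% over all genes do not set apart.

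Markers of other cells moved with the libraries in part. All 4 globin genes were lower in CxB, with a median ratio of -0.32 and a summed level of 332 RPM per kilobase in BxC and 268 in CxB. Of 5 neuronal symbols 4 matched the annotation, which lists Map2 under an older symbol, so that Map2 was not counted. Their median ratio was 0.05, with Snap25 and Stmn2 at 0.05 and Dcx at 0.13. The summed level of the 4 was 1402 and 1287, and Tubb3, the most abundant, was the 1 gene of the 4 below 0, at -0.21. By distinct alignments the ratio of Hba-a2 turned from -0.35 to 0.08 and that of Tubb3 was -0.06. Neural progenitor genes summed to 139 and 140. The hypothalamic genes summed to 18.6 and 20.8, and 4 of the 6 had at least 100 reads in each library, with a median ratio of 0.15. Avp, the vasopressin gene, had 297 and 373 reads, a ratio of 0.56 by reads and 0.25 by distinct alignments. Sim1 turned from 0.26 by reads to -0.18 by distinct alignments, while Pomc went from -0.02 to -0.10 and Otp from 0.03 to 0.16. Skin and muscle genes summed to 2.97 and 2.65, with Acta1 at 2.49 and 2.02 from 465 and 321 reads, Myh3 at 138 and 96 reads, Krt14 at 65 and 58 and Krt5 at 5 and 44. The part of these differences in the ratios of Ndn and Magel2 was not tested.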

How the data were processed

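Whole-brain polyA+ RNA of 1 BxC and 1 CxB embryo was sequenced as reads of 36 bases. The authors aligned them with Novoalign (version not given in the sources used here) and deposited alignments in mm9 coordinates. Their methods describe unique alignments to gene models, junctions and the genome, among others, and which was deposited is not stated. Each deposited alignment carries a whole-number count, taken here from its values as the number of identical reads. The library totals obtained in this way exceed the average yield that the study states, so this reading of the count is not settled. No normalization had been applied. Alignments list no bases, and 0 columns could not be assigned.

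Reads were counted over catalog entries, each read for the innermost, and over exons of GENCODE vM1 genes (same build), on either strand, with Python 3.11.15, numpy 2.4.6, pandas 2.3.3 and scipy 1.17.1. RPM are reads scaled to 1000000 per library total. Intervals at 95% are exact Poisson, Clopper-Pearson or, for ratios, exact binomial, and cover counting error only, with each read taken as independent. Ratios needed at least 100 reads in each library. Uniqueness was found by searching all 36-base words in mm9. Coding sequences were aligned globally with Biopython 1.88 (match 1, mismatch -1, gap -2 and -0.5). Calculations were tested on simulated counts drawn independently, which cannot show whether the intervals hold for reads piled on shared alignments.

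The rule named all members, the genes highest and lowest in level of each list and those next to Ndn in level. Other listed genes were named after their values were seen. Members and lists were chosen with earlier results of these data known. Alternatives were distinct alignments, sense reads, annotated genes, unsplit entries, other totals and scaling, and other minimums. The values of 1 listed gene are not reported here.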

Additional observations from a re-analysis of the deposited data

How the results depend on the processing

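No paired analysis was possible because each cross has 1 library and the labels give no replicate numbers. The number of covered entries stayed at 5 with a minimum of 100 reads, with distinct alignments and with unsplit entries, but was 4 with the annotated Ndn in place of the catalog entry, which left PX00010K13 with 0 and 2 reads, and the number of members and of listed genes past 1.5-fold stayed at 0 under every alternative run. Counting distinct alignments moved the level of the Ndn entry in BxC from 215 to 106 RPM per kilobase, the sense share of Ndn from 44.6% to 53.3%, its share of the Zfp127 entry from 56.5% to 32.3% and the coding share of its aligned bases from 53.4% to 68.2%. Sense reads alone gave the Ndn entry 95.8, and the annotated gene 206. The cause was not tested for distinct alignments, and sense reads are fewer by construction. The log2 ratio of the Ndn entry was -0.55 with sense reads and -0.40 with distinct alignments. Whether crowded starts limit the count of distinct alignments in Ndn was not tested. The ratio of the Ndn gene was -0.55 without the most used start positions. The Mkrn3 gene went from 0.27 to 0.06 with distinct alignments. These alternatives for genes and the annotated Ndn were chosen after seeing the data. The Zfp127 entry had a ratio of 0.12 after splitting and -0.22 unsplit, where it holds the reads of Ndn. The Magel2 entry went from -0.27 to -0.15 with distinct alignments and -0.38 with sense reads. Low depth limits Peg12 and the microRNA hairpins.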
